A study of Mus musculus with 4 samples.

Results

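The guanylin route to intestinal chloride secretion was followed through 7 genes: Guca2a, Guca2b, Gucy2c, Prkg2, Cftr, Kcnq1 and Kcne3. They were taken by symbol from a list of named genes, 7 of the 31053 genes measured, and all 7 were present under 1 symbol each. Single cells were profiled with the 10x Genomics 3′ chemistry from mouse duodenal crypts, in 2 WT and 2 APC-KO libraries. WT mice carried Atoh1CreER-T2 and R26RTom. The APC-KO genotype is labelled Atoh1Cre;Apcfl/fl;R26RTom on the samples, whereas the series text gives it the inducible Atoh1CreER-T2. All mice of both genotypes received tamoxifen at 1 mg/mL, in 2 intraperitoneal doses 24 h apart, and cells were collected 12 h after the second dose. Both groups therefore share an Atoh1-driven recombinase, the reporter and the tamoxifen. Whether the recombinase of the APC-KO mice is the inducible form is left unsettled by these sources. Any difference in the recombinase would fall together with genotype and cannot be told apart from it. Live cells positive for the Tom reporter were sorted, so the libraries hold cells in which Atoh1-driven recombination had marked the cell or its precursor. Ages, animals per library and sequencing batches are not given in the sources used here, and p-values below measure the spread between libraries, which may be technical.

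Guanylin, encoded by Guca2a, and uroguanylin, encoded by Guca2b, are small secreted peptides of the gut epithelium. They bind guanylyl cyclase C, the product of Gucy2c, on the apical membrane, and the receptor then makes cGMP. In enterocytes cGMP activates the kinase encoded by Prkg2, which phosphorylates the chloride channel CFTR, and chloride and bicarbonate leave the cell with water following. The potassium channel KCNQ1 with its subunit KCNE3 sits on the basolateral side of crypt cells, where potassium exit keeps the membrane voltage that drives chloride out. Bacterial heat-stable enterotoxin acts on the same receptor and causes secretory diarrhoea.

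The 2 ligand genes are neighbours on mouse chromosome 4 (GRCm38, GENCODE vM21). Guca2a (ENSMUSG00000023247) spans chr4:119637704-119639471 on the plus strand and Guca2b (ENSMUSG00000032978) spans chr4:119656607-119658954 on the minus strand, with 17135 bases between them. Their RefSeq promoters are shown because the neighbouring genes had different profiles over the cell types. Each sequence runs 5′ to 3′ on the gene's own strand and ends just before the first annotated base of the gene, and capitals mark the motif matches described after them.
Guca2a promoter, chr4:119637482-119637703, plus strand: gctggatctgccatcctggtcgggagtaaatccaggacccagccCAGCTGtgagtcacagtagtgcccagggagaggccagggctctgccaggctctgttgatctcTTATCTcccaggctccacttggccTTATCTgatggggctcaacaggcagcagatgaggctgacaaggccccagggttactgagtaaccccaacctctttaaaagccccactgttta
Guca2b promoter, chr4:119658955-119659195, minus strand: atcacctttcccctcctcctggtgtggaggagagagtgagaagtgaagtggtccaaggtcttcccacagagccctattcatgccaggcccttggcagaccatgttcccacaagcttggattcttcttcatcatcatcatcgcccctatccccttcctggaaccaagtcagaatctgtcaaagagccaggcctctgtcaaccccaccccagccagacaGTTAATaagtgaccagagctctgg
The search covered 4 motifs on both strands: the GATA motif TTATCT, the HNF1 half-site GTTAAT, the TCF/LEF motif CTTTGAT and the E-box CAGCTG. The Guca2a window held 2 GATA matches, 144 and 120 bases before the RefSeq start, and 1 E-box match at 206 bases. Of 32851 RefSeq promoter windows of the same length, 9.10% held a GATA match and 11.5% an E-box match. The Guca2b window held 1 HNF1 half-site, 33 bases before the start, which 6.29% of windows of that length held. Neither window held the TCF/LEF letters, which 2.93% and 3.12% of windows of the 2 lengths held. A match describes the letters and does not show a bound site.

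The other 5 genes lie elsewhere. Gucy2c (ENSMUSG00000042638) spans chr6:136697284-136781765 on the minus strand and Cftr (ENSMUSG00000041301) spans chr6:18170687-18322768 on the plus strand. Kcnq1 (ENSMUSG00000009545) spans chr7:143106362-143427042 and Kcne3 (ENSMUSG00000035165) spans chr7:100176502-100184869, both on the plus strand, and Prkg2 (ENSMUSG00000029334) spans chr5:98929773-99037351 on the minus strand. The long antisense transcript Kcnq1ot1 lies inside Kcnq1. Whether counting used the strand is not given in the sources used here, so reads of Kcnq1 and Kcnq1ot1 cannot be told apart with certainty.

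UMIs, which count each captured transcript once, were summed over the cells that the authors kept, per library and per deposited cell type name, and expressed as UMIs per 1000000 UMIs of that sum (CPM). The kept cells numbered 4814 and 3821 in the WT libraries and 356 and 6243 in the APC-KO libraries, with 3009636 to 27285079 UMIs per library. APC-KO replicate 1 stood apart: its kept cells held 5.15% of its UMIs, against 37.6% to 50.3% in the others. Pairs of libraries shared 1 to 8 cell barcodes. Apc stood at 87.2 and 77.9 CPM in WT and at 88.1 and 88.1 CPM in APC-KO. Which exons are deleted is not stated, and 3′ tags outside them check nothing. The 12 type names are printed as deposited. Markers of goblet, Paneth, enterochromaffin, other enteroendocrine, tuft, stem and enterocyte cells were highest in GOBLET, PANETH, EC, NON-EC, TUFT, ISC and ENTERO-PRO, respectively. The Paneth markers alone summed to a mean of 452411 CPM in PANETH cells, and the goblet markers to 412790 CPM in GOBLET cells. Because CPM is a share of the sum, such levels lower the CPM of all other genes in these types. T and B cell, myeloid, and stromal and endothelial markers summed to 0.953 to 7.64 CPM per library. Because the names come from the same cells and genes, levels over types are a description without a test. Means and SDs over types use libraries with at least 10 cells of the type, which leaves n = 3 for GP, SEC-PRO and TUFT and n = 4 otherwise.

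Guca2a was highest in the precursor types of both secretory lineages. Its level was 5150 and 3700 CPM in PANETH-PRE cells of the WT libraries and 3806 and 3073 CPM in those of the APC-KO libraries. In GOBLET-PRE cells it was 4801 and 3338 CPM in WT against 3523 and 3484 CPM in APC-KO. GP cells stood at 3488 and 2802 CPM in WT and at 3181 CPM in APC-KO replicate 2. The ranges of these 3 types overlapped, and all lay above every other type. SEC-PRO followed at 1408 ± 211 CPM (SD, n = 3) and mature GOBLET cells at 1014 ± 350 CPM (SD, n = 4), 3.88-fold below PANETH-PRE. ISC cells were lowest, at 141 ± 103 CPM (SD, n = 4), 28.0-fold below PANETH-PRE, and the 5 lowest types, ISC, EC, NON-EC, TUFT and EEC-PRE, overlapped.

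Guca2b was highest in the Paneth types. PANETH-PRE cells held 2013 and 1855 CPM in WT against 1670 and 1145 CPM in APC-KO. PANETH cells held 1270 and 1368 CPM in WT against 779 and 1325 CPM in APC-KO. These 2 types overlapped each other and lay above all others, the next being GP at 600 ± 105 CPM (SD, n = 3) and SEC-PRO at 495 ± 96.9 CPM (SD, n = 3). GOBLET-PRE cells, which led for Guca2a beside PANETH-PRE, held 266 ± 91.9 CPM of Guca2b (SD, n = 4). Mature GOBLET cells held 52.4 ± 16.6 CPM (SD, n = 4), 31.9-fold below PANETH-PRE and in the range of EC, TUFT, NON-EC and ISC cells.

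**Figure D1:**
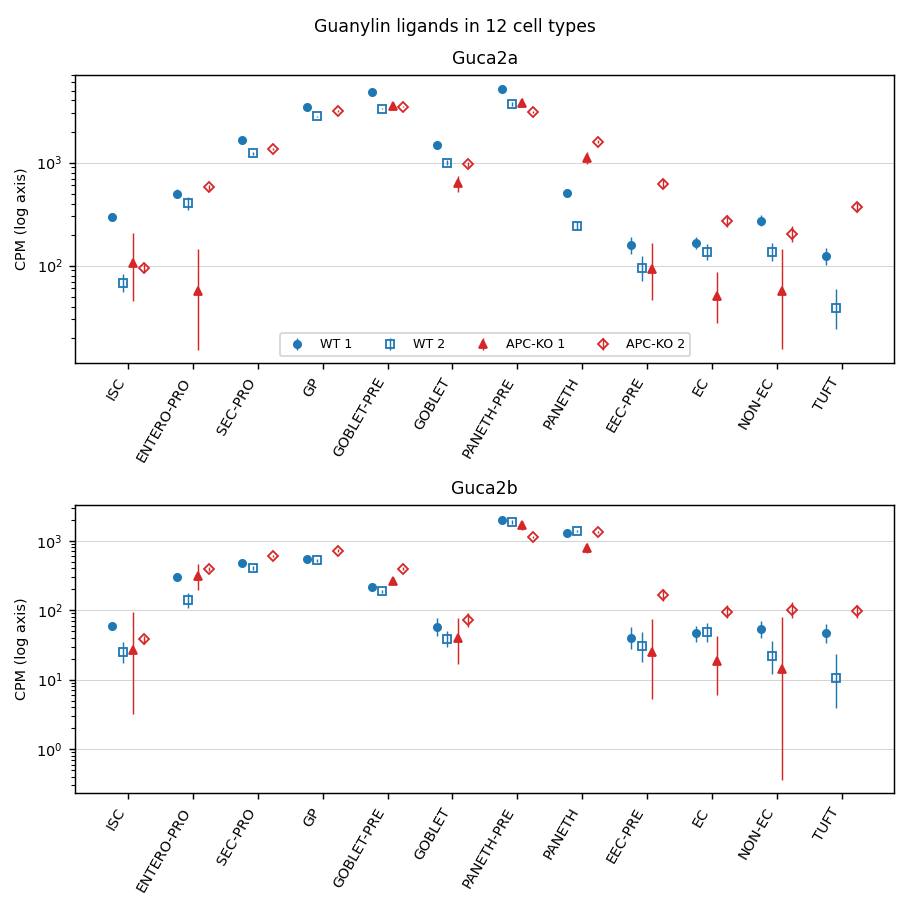
Level of Guca2a (top) and Guca2b (bottom) in 12 cell types, in CPM on a log axis; each point is 1 library with at least 10 cells of the type, and bars are exact 95% Poisson intervals, which cover counting error only. Guca2a was highest in PANETH-PRE, GOBLET-PRE and GP cells and Guca2b in PANETH-PRE and PANETH cells.

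The share of Guca2a among the UMIs of both ligands summarises the difference between the lineages. Capture of each transcript is not known, so the share compares cells and not the amounts of the peptides. In GOBLET cells the share was 96.2% and 96.2% in WT and 94.1% and 92.9% in APC-KO, and in GOBLET-PRE cells 95.7% and 94.7% against 93.0% and 89.8%. PANETH-PRE cells held 71.9% and 66.6% in WT and 69.5% and 72.9% in APC-KO. In PANETH cells Guca2a made up 28.4% (95% Clopper-Pearson interval 26.7 to 30.2) and 15.2% (14.0 to 16.4) of the ligand UMIs in WT. The same share was 58.7% (53.2 to 63.9) and 54.5% (53.2 to 55.9) in the APC-KO libraries, the first from 16 cells. These intervals cover counting error only and not the spread between cells. PANETH was thus the 1 type in which Guca2b UMIs outnumbered Guca2a UMIs in both WT libraries, and it did not do so in either APC-KO library. The ENTERO-PRO cells of APC-KO replicate 1 also had a low share, 15.4%, from 11 cells and 26 ligand UMIs.

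The PANETH difference between genotypes was 34.8 percentage points. The two-sided exact permutation test gave p = 0.3333, the smallest that 2 libraries against 2 allow, and this pattern was noticed after its values were seen. Among the 12 types the share also did not overlap between genotypes in ENTERO-PRO, NON-EC, GOBLET and GOBLET-PRE, with the same p in that test. There the differences were −31.1, −11.6, −2.72 and −3.78 percentage points, so that the share was lower in APC-KO. The NON-EC share of APC-KO replicate 1 came from 13 cells with 4 Guca2a UMIs and 1 Guca2b UMI. Free RNA was then subtracted at 5% of each sum, its profile taken from barcodes with 1 to 50 UMIs. After this the PANETH shares were 25.7% and 12.0% in WT and 58.0% and 53.9% in APC-KO. The NON-EC shares were then 83.9% and 95.0% in WT and 100% and 63.8% in APC-KO, so these groups overlapped. In ENTERO-PRO, GOBLET and GOBLET-PRE they still did not. Other values also differed between the genotypes in PANETH cells, to unequal degrees. The 6 Paneth markers, all detected, summed to 519491 and 520704 CPM in WT and to 447576 and 321872 CPM in APC-KO. The 7 goblet markers, all detected, summed to 30174 and 18873 CPM in WT and to 30838 and 76984 CPM in APC-KO. For these, APC-KO replicate 1 lay close to WT replicate 1. Median UMIs per PANETH cell were 12643.5 and 10371.5 in WT and 3552 and 5954 in APC-KO. The 8 enterocyte markers summed to 154 and 123 CPM in WT and to 1348 and 410 CPM in APC-KO. The part of these in the result was not tested.

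**Figure D2:**
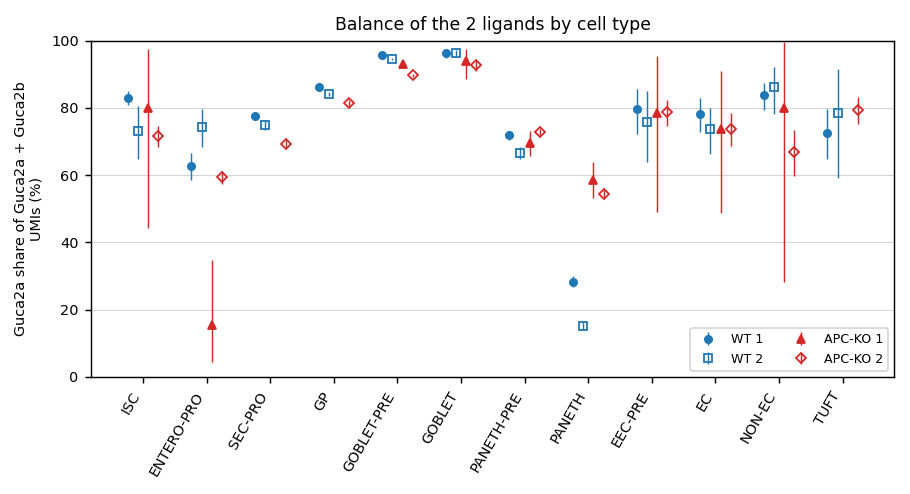
Share of Guca2a among Guca2a and Guca2b UMIs (%) by cell type; each point is 1 library with at least 10 cells of the type, and bars are exact 95% binomial intervals, which cover counting error only. PANETH cells stand at 15.2% to 28.4% in WT and at 54.5% to 58.7% in APC-KO, while GOBLET cells stand at 92.9% to 96.2%.

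Most cells of the leading types held the ligands. After thinning each cell to 2000 UMIs, a Guca2a UMI was found in 91.4% and 86.7% of GOBLET-PRE cells in WT and in 85.7% and 90.3% in APC-KO. Before thinning the shares were 94.5%, 92.2%, 88.0% and 94.3%, at median depths of 5311, 5747, 10214 and 3996 UMIs per cell. TUFT cells, a type of the lowest levels, had a Guca2a UMI in 12.2%, 4.20% and 19.0% of thinned cells in WT replicates 1 and 2 and APC-KO replicate 2, at median depths of 3879, 4643 and 2676 UMIs. Guca2a made up 1061 to 1388 CPM of the free RNA, so single UMIs in the lowest types are not read as expression. In PANETH cells the thinned share with Guca2a was 50% and 32.5% in WT and 75.0% and 81.4% in APC-KO. The thinned share of PANETH cells with Guca2b was 85.8% and 90.5% in WT and 37.5% (of 16 cells) and 84.3% in APC-KO. Both ligands were found together in 80.0% and 82.7% of thinned PANETH-PRE cells in WT and in 54.5% of 11 cells and 74.2% in the APC-KO libraries.

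The types supplied unequal shares of the ligand transcripts. GOBLET-PRE cells supplied 55.1% and 59.3% of all Guca2a UMIs in WT and 86.4% and 37.6% in APC-KO, where they made up 51.7% and 17.3% of the cells. PANETH cells, 2.20% and 5.23% of the WT cells, supplied 21.1% and 36.3% of the Guca2b UMIs there. In APC-KO they were 4.49% and 4.39% of the cells and supplied 16.1% and 19.4%.

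Gucy2c, the receptor, was found at a low level in every type and was highest in NON-EC cells. NON-EC held 211 and 227 CPM in WT against 257 and 195 CPM in APC-KO, a range that no other type overlapped. EC cells followed at 101 and 103 CPM in WT against 146 and 115 CPM in APC-KO. TUFT stood at 94.3 ± 24.0 CPM (SD, n = 3), and the types from ENTERO-PRO at 78.4 ± 7.59 CPM down to ISC at 64.0 ± 5.99 CPM (SD, n = 4) overlapped one after the other. GOBLET, EEC-PRE and PANETH cells had the lowest means, at 43.4 ± 4.79, 40.1 ± 5.97 and 38.4 ± 17.2 CPM (SD, n = 4). Goblet and Paneth markers take up much of the GOBLET and PANETH sums, and their part in these low means was not tested. The highest and lowest type differed 5.80-fold, against 28.0-fold for Guca2a and 44.9-fold for Guca2b. Free RNA held 34.2 to 92.1 CPM of Gucy2c, near the level of most types but below NON-EC. Here and for the other genes, the CPM of free RNA describe its make-up and not the amount it adds to a type. That amount was assumed to be 5% of a sum in the subtraction and was not measured. Of the types that led for the ligands, PANETH-PRE held 66.2 ± 10.3 CPM and GOBLET-PRE 71.7 ± 10.2 CPM of the receptor transcript (SD, n = 4). PANETH had the lowest mean, but its range of 16.6 to 56.9 CPM held those of GOBLET and EEC-PRE and reached that of ISC. Its lowest value came from 3 UMIs in 16 cells of APC-KO replicate 1.

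Prkg2, the cGMP-dependent kinase, was sparsely counted, with 19 to 339 UMIs per library over all kept cells. ENTERO-PRO cells held 51.4 and 34.7 CPM in WT against 56.2 and 31.5 CPM in APC-KO. EC, ISC and NON-EC cells followed at 26.3 ± 14.1, 22.5 ± 6.26 and 13.4 ± 3.54 CPM (SD, n = 4), and each overlapped its neighbour in this order. SEC-PRO at 3.65 ± 2.06 CPM (SD, n = 3) and the types after it lay below these 4 types. GOBLET held 0, 1, 0 and 2 UMIs in the 2 WT and then the 2 APC-KO libraries, at or under the 3-UMI floor. Free RNA held 12.8 to 19.8 CPM of Prkg2, near the level of NON-EC cells and of EC cells in WT, but below ENTERO-PRO.

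Cftr, the apical chloride channel, was highest in ISC cells, at 136 and 149 CPM in WT against 92.4 and 169 CPM in APC-KO. ENTERO-PRO cells held 98.8 and 71.7 CPM in WT against 42.2 and 96.8 CPM in APC-KO, overlapping ISC. SEC-PRO followed at 27.1 ± 10.7 CPM (SD, n = 3), below both, and GOBLET was lowest at 4.33 ± 6.06 CPM (SD, n = 4). Cftr and the Guca2a peak thus lay in different types: GOBLET-PRE held 2.58 to 12.4 CPM of Cftr. ISC cells supplied 63.8% and 53.7% of the Cftr UMIs in WT and 31.8% and 57.6% in APC-KO. A Cftr UMI was found in 24.0% and 26.2% of thinned ISC cells in WT and in 29.0% in APC-KO replicate 2, against 1.03%, 0.725% and 2.06% of GOBLET-PRE cells of the same libraries.

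APC-KO replicate 2 held the highest Cftr level in each type, ISC included, except ENTERO-PRO and GP. PANETH-PRE cells of this library held 47.8 CPM, against 6.49 and 6.86 CPM in WT, while APC-KO replicate 1 held 0 of 107204 UMIs, where 3 UMIs would be 28.0 CPM. EC cells held 31.9 CPM in this library, against 5.59 and 3.21 CPM in WT, while APC-KO replicate 1 held 0 UMIs. The free RNA of APC-KO replicate 2 held 64.1 CPM of Cftr, the highest of the 4 libraries, against 52.4, 34.9 and 23.5 CPM in WT replicates 1 and 2 and APC-KO replicate 1. ISC cells were 19.9% of the kept cells of that library, against 11.9%, 5.97% and 3.65% in the others. The part of these values in the difference was not tested.

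Kcnq1, the pore of the basolateral potassium channel, was highest in TUFT and ISC cells. TUFT held 114 and 95.4 CPM in WT against 108 CPM in APC-KO replicate 2. ISC held 62.7 and 89.4 CPM in WT against 119 and 85.2 CPM in APC-KO, overlapping TUFT. EC cells followed at 36.8 ± 14.5 CPM (SD, n = 4), below both. GP, GOBLET and GOBLET-PRE cells were lowest, at 1.49 ± 0.494 CPM (SD, n = 3), 1.71 ± 2.96 CPM and 2.35 ± 2.66 CPM (SD, n = 4). Kcnq1ot1, the antisense transcript within the gene, was also high in TUFT, at 297 and 178 CPM in WT against 429 CPM in APC-KO replicate 2, and in ISC, at 175 and 178 CPM in WT against 79.2 and 285 CPM in APC-KO. How many Kcnq1 UMIs come from it was not tested. Free RNA held 13.9 to 44.3 CPM of Kcnq1, near the EC level but below TUFT and ISC.

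Kcne3, the subunit that keeps KCNQ1 open in crypt cells, was highest in ISC cells alone. ISC held 179 and 238 CPM in WT against 238 and 160 CPM in APC-KO, above every other type. PANETH-PRE was second at 72.3 ± 4.96 CPM (SD, n = 4), also without overlap with the next type, SEC-PRO at 48.7 ± 1.71 CPM (SD, n = 3). EC was lowest at 7.28 ± 5.61 CPM (SD, n = 4), 28.0-fold below ISC. Free RNA held 43.3 to 84.0 CPM of Kcne3, near the PANETH-PRE and SEC-PRO levels but below ISC. The pore and its subunit were thus both high in ISC, while TUFT cells, high for Kcnq1, held 15.9 and 3.53 CPM of Kcne3 in WT and 29.0 CPM in APC-KO replicate 2. In thinned TUFT cells Kcnq1 was found in 19.7%, 19.3% and 19.4% of cells of these libraries and Kcne3 in 2.35%, 0% and 2.16%. In thinned ISC cells Kcnq1 was found in 14.4%, 16.3% and 14.4% and Kcne3 in 29.0%, 35.7% and 27.8% of cells. Among WT ISC cells with a Kcnq1 UMI, Kcne3 was found in 36.2% (29 of 80) and 44.4% (16 of 36). Among WT ISC cells without one it was found in 27.8% and 34.1%. In APC-KO replicate 2 these shares were 29.3% (51 of 174) and 27.6%, and APC-KO replicate 1 had 2 thinned ISC cells with a Kcnq1 UMI. Differences between these shares were not tested.

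**Figure D3:**
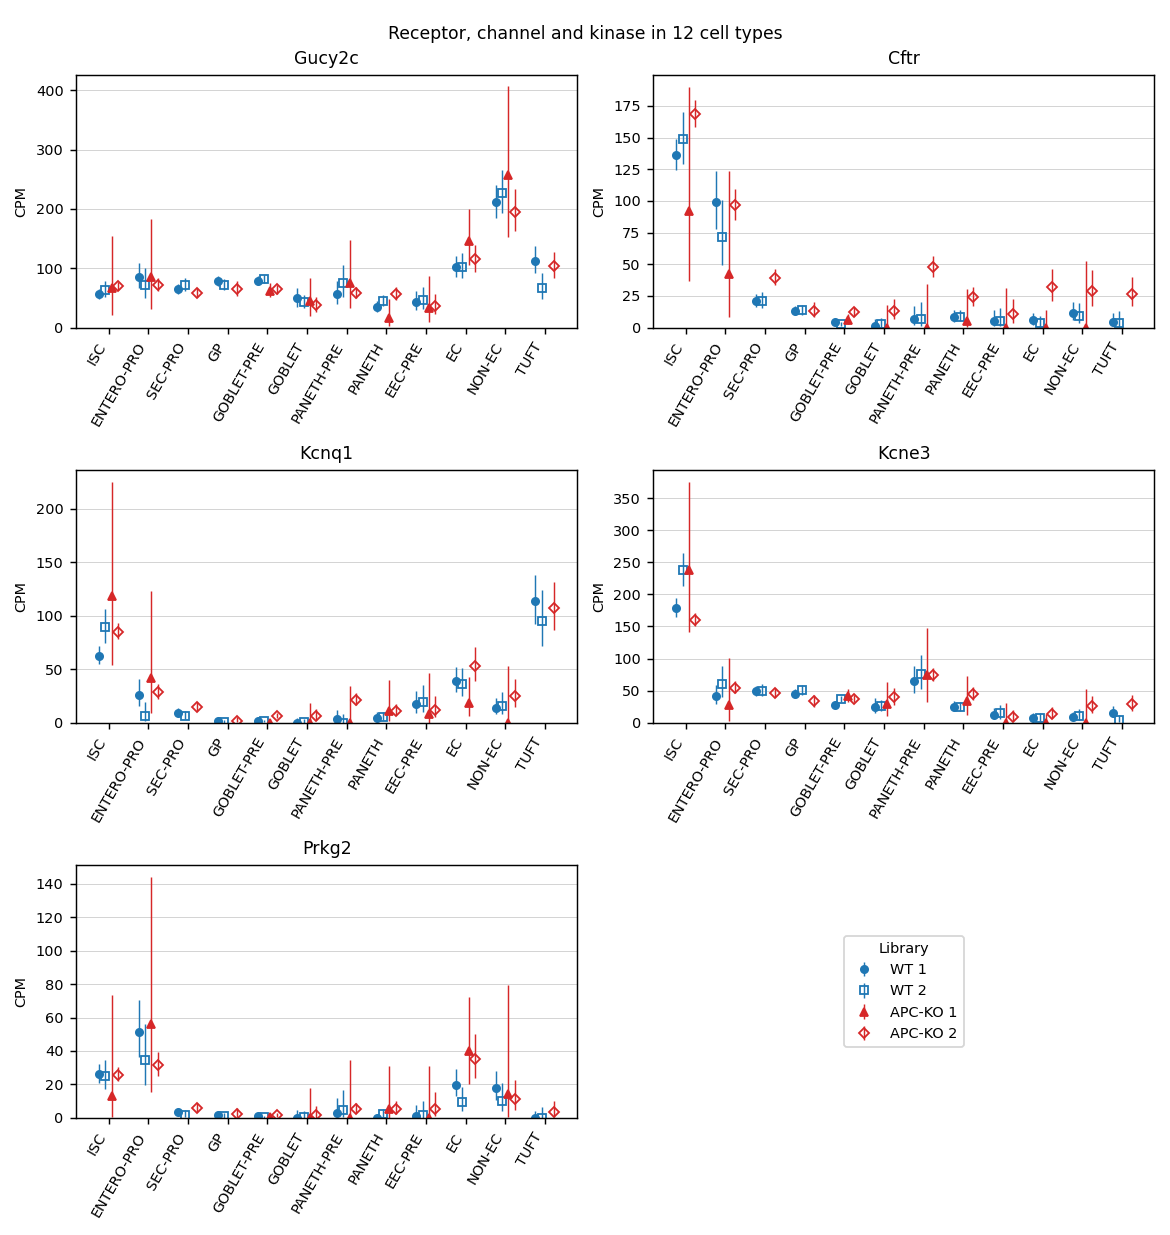
Level of the receptor gene Gucy2c, the channel genes Cftr, Kcnq1 and Kcne3 and the kinase gene Prkg2 in 12 cell types, in CPM on linear axes; each point is 1 library with at least 10 cells of the type, and bars are exact 95% Poisson intervals, which cover counting error only. Gucy2c was highest in NON-EC, Cftr and Kcne3 in ISC, Kcnq1 in TUFT and ISC, and Prkg2 in ENTERO-PRO cells.

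Over the 12 types in WT, log2(CPM + 5) of Guca2a and Guca2b had a Pearson r of 0.70 (0.83 in APC-KO), and Guca2a and Kcnq1 one of −0.85 (−0.71). Cftr had r = 0.73 with Kcne3 (0.71 in APC-KO) and 0.76 with Prkg2 (0.63), whereas Kcnq1 and Kcne3 had −0.11 (0.17). These describe 12 types that share the same libraries. The 3 genes whose pattern over types was most like each member were chosen by r in WT among genes with at least 20 CPM in a type. For Guca2a they were Chrm1 (r = 0.97, 0.80 in APC-KO), Liph (0.97, 0.88) and Sppl2a (0.97, 0.87). For Guca2b they were Eef1akmt3 (0.94, 0.82), the secretory cell transcription factor gene Bhlha15 (0.93, 0.83) and Mmp7 (0.90, 0.89), which encodes the protease that processes mouse Paneth cell defensins. Gucy2c was followed by Ocrl (0.94, 0.72), Irf2bpl (0.92, 0.73) and Cdkl2 (0.92, 0.72). Nearest to Cftr were Vipr1, the receptor gene for the secretagogue VIP (0.98, 0.92), Tnfsf10 (0.97, 0.88) and Agmat (0.96, 0.89). Kcnq1 had Kcnq1ot1 (0.95, 0.94), the Notch receptor gene Notch1 (0.94, 0.92) and Clic6 (0.90, 0.79). Kcne3 had the Notch target Hes1 (0.96, 0.91), Slc25a13 (0.90, 0.85) and Trim2 (0.88, 0.75). Prkg2 had the creatine kinase gene Ckb (0.97, 0.81) and the amino acid transporter genes Slc7a8 (0.96, 0.87) and Slc16a10 (0.94, 0.71). With a pseudocount of 1, 17 of the 21 were again among the 3 nearest, and Chrm1, Agmat, Clic6 and Slc16a10 were not.

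Genotypes were compared on sums of cells with edgeR's quasi-likelihood test, Benjamini-Hochberg adjusted over all genes tested, with 2 libraries per genotype. Sums needed at least 20 cells in every library. This left all kept cells (ALL), EC, GOBLET, GOBLET-PRE, PANETH and PANETH-PRE together (PANETH-LINEAGE), and ISC, ENTERO-PRO and SEC-PRO together (PROGENITOR). None of the 34 tests of the 7 genes that passed the low-count filter in the 6 sums reached an adjusted p of 0.05 in edgeR, and 10 had an unadjusted p under 0.05: 0, 1, 1, 2, 4 and 2 in ALL, EC, GOBLET, GOBLET-PRE, PANETH-LINEAGE and PROGENITOR. Over all genes tested in these sums, 3.71%, 8.39%, 11.2%, 7.95%, 14.8% and 12.4% had one. DESeq2's Wald test called 0 of the 7 genes in each sum. Over all genes tested, the share called was 0% in ALL and in EC, 0.0837% in GOBLET, 0.00974% in GOBLET-PRE, 0.663% in PANETH-LINEAGE and 0.92% in PROGENITOR, so that few genes of any kind were called. Genotypes did not overlap in CPM for 34.5% of all genes in ALL, 38.9% in EC, 44% in GOBLET, 41.8% in GOBLET-PRE, 51.2% in PANETH-LINEAGE and 43.1% in PROGENITOR. Among the 7 genes that passed the filter they did not overlap for 1 of 7, 2 of 5, 2 of 4, 4 of 5, 4 of 6 and 3 of 7 in the same order. All log2 fold changes below are APC-KO minus WT. Where the adjusted p of an alternative fit is printed, the lowest over that result's alternatives is among those given, and the highest was 1.00 for each. In sums of several types, the mix of types and the level within a type both enter the value.

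For the ligands, the values differed in direction between sums. In GOBLET cells Guca2a stood at 1476 and 994 CPM in WT and at 627 and 958 CPM in APC-KO (log2 fold change −0.77, SE 0.32, edgeR adjusted p = 0.403). In PROGENITOR cells it stood at 881 and 734 CPM in WT and at 284 and 602 CPM in APC-KO (−0.72, SE 0.32, edgeR adjusted p = 0.385). SEC-PRO cells, which hold more Guca2a than ISC or ENTERO-PRO cells, were 543 of 1234 and 387 of 680 PROGENITOR cells in WT and 5 of 29 and 863 of 2576 in APC-KO. Within SEC-PRO cells Guca2a stood at 1638 and 1225 CPM in WT against 1361 CPM in APC-KO replicate 2. Without APC-KO replicate 2 the PROGENITOR value was −1.43 (edgeR adjusted p = 0.0394), and in ISC cells alone, a comparison added after seeing the data, −0.90 (edgeR adjusted p = 0.0292). The ISC comparison rests on 13 cells with 8 Guca2a UMIs in APC-KO replicate 1, on 293 and 68.1 CPM in WT and on 105 and 95.2 CPM in APC-KO, so the groups overlapped. The 7 goblet markers, all detected, summed in ISC cells to 8994 and 4960 CPM in WT and to 3549 and 5453 CPM in APC-KO, and their part in the result was not tested. In the PANETH-LINEAGE sum Guca2a stood at 1872 and 847 CPM in WT and at 2110 and 2473 CPM in APC-KO, without overlap. The log2 fold change was 0.24 (SE 0.42, edgeR adjusted p = 0.862). PANETH-PRE cells were 122 of 228 and 98 of 298 cells of this sum in WT and 11 of 27 and 602 of 876 in APC-KO. On raw CPM the median gene of this sum was itself 0.50 higher in APC-KO on the log2 scale, against −0.16 to 0.17 in the other 5 sums, and TMM factors take this up. In PANETH cells alone, added after seeing the data, Guca2a was 503 and 244 CPM in WT against 1105 and 1588 CPM in APC-KO (log2 fold change 1.24, SE 0.41, edgeR adjusted p = 0.174). In PANETH-PRE cells alone it was −0.35 (SE 0.37, edgeR adjusted p = 0.798). Both fits went below the minimum of 20 cells, with 16 PANETH and 11 PANETH-PRE cells in APC-KO replicate 1.

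Guca2b in the PANETH-LINEAGE sum stood at 1489 and 1453 CPM in WT and at 1110 and 1218 CPM in APC-KO (log2 fold change −0.84, SE 0.34, edgeR adjusted p = 0.274). In GOBLET-PRE cells it was 218 and 187 CPM in WT against 265 and 395 CPM in APC-KO (0.82, SE 0.22, edgeR adjusted p = 0.522). With no filter on low counts the latter was 0.79 with an adjusted p of 0.0153 in edgeR. Groups did not overlap in either sum. In GOBLET-PRE cells the 6 Paneth markers summed to 7272 and 6567 CPM in WT and to 7676 and 15205 CPM in APC-KO, and their part in the Guca2b values was not tested.

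In EC cells the direction for both ligands depended on which APC-KO library was left out. Guca2a was 167 and 135 CPM in WT against 51.2 and 270 CPM in APC-KO (log2 fold change 0.34, SE 0.44, edgeR adjusted p = 0.879). It was 0.87 without APC-KO replicate 1 (edgeR adjusted p = 0.00277) and −1.49 without APC-KO replicate 2 (edgeR adjusted p = 0.00613). Guca2b in EC cells was 0.66 (SE 0.41, edgeR adjusted p = 0.695), and 1.06 without APC-KO replicate 1 (edgeR adjusted p = 0.0027).

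The receptor gene Gucy2c had low SEs in these fits. Over all kept cells it stood at 76.9 and 75.8 CPM in WT and at 69.1 and 68.7 CPM in APC-KO (log2 fold change −0.06, SE 0.15, edgeR adjusted p = 1.00). In GOBLET-PRE cells it was 79.0 and 81.8 CPM in WT against 61.7 and 64.3 CPM in APC-KO (−0.23, SE 0.14, edgeR adjusted p = 0.690). EC cells held 101 and 103 CPM in WT against 146 and 115 CPM in APC-KO (0.37, SE 0.21, edgeR adjusted p = 0.662). The fitted value in the PANETH-LINEAGE sum was −0.48 (SE 0.22, edgeR adjusted p = 0.332), although mean CPM were 45.9 ± 6.75 in WT and 47.8 ± 13.6 in APC-KO (SD, n = 2 each), so that its direction depends on the scaling.

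Prkg2 in EC cells had the lowest adjusted p of the 7 genes there. It stood at 19.96 and 9.62 CPM in WT and at 40.3 and 35.3 CPM in APC-KO, from 9 to 31 UMIs per library (log2 fold change 1.31, SE 0.41, edgeR adjusted p = 0.477). Leaving out WT replicate 1 gave 2.02, and leaving out WT replicate 2 gave 0.91. In the PROGENITOR sum it stood at 19.2 and 13.4 CPM in WT and at 29.0 and 20.5 CPM in APC-KO (0.42, SE 0.27, edgeR adjusted p = 0.586). Groups did not overlap in either sum. ENTERO-PRO cells, the highest type for Prkg2, were 116 of 1234 and 65 of 680 PROGENITOR cells in WT and 11 of 29 and 468 of 2576 in APC-KO. Within ENTERO-PRO cells the levels given above overlapped between genotypes, as they did within ISC cells, at 26.3 and 24.8 CPM in WT against 13.2 and 25.9 CPM in APC-KO. The part of the mix of types in the PROGENITOR value was not tested.

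Cftr over all kept cells depended on the library. It stood at 29.7 and 18.6 CPM in WT and at 7.31 and 64.2 CPM in APC-KO, the lowest and the highest of the 4 being the APC-KO libraries (log2 fold change 0.70, SE 0.83, edgeR adjusted p = 1.00). Without APC-KO replicate 1 it was 1.43 (edgeR adjusted p = 0.0368), and without APC-KO replicate 2 it was −1.52 (edgeR adjusted p = 0.222). In the PANETH-LINEAGE sum Cftr stood at 7.65 and 8.38 CPM in WT and at 3.47 and 38.1 CPM in APC-KO (1.31, SE 0.37, edgeR adjusted p = 0.132). This became 1.41 (edgeR adjusted p = 0.0105) without APC-KO replicate 1, −1.42 without APC-KO replicate 2 (edgeR adjusted p = 0.758), and 1.28 with no filter on low counts (edgeR adjusted p = 0.00403). In GOBLET-PRE cells it was 4.66 and 2.58 CPM in WT against 5.61 and 12.4 CPM in APC-KO (1.54, SE 0.44, edgeR adjusted p = 0.554, and 1.502 with 0.00191 with no filter). It was 0.80 without APC-KO replicate 2 and 2.04 without WT replicate 1. In the PROGENITOR sum, where the channel is highest, it was 83.7 and 70.8 CPM in WT against 57.9 and 112 CPM in APC-KO (0.46, SE 0.25, edgeR adjusted p = 0.504).

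Kcnq1 in the PROGENITOR sum stood at 36.5 and 35.2 CPM in WT and at 75.3 and 51.1 CPM in APC-KO, without overlap (log2 fold change 0.67, SE 0.20, edgeR adjusted p = 0.154). Within ISC cells, which led in this sum, the levels given above overlapped between genotypes. Without APC-KO replicate 1, which held 13 Kcnq1 UMIs in that sum, it was 0.59 (edgeR adjusted p = 0.0495). In the PANETH-LINEAGE sum it was 4.30 and 4.79 CPM in WT against 6.94 and 17.3 CPM in APC-KO, from 2 to 79 UMIs per library (1.06, SE 0.40, edgeR adjusted p = 0.238), and 0.37 without APC-KO replicate 2. Over all kept cells the values were 19.0 and 13.4 CPM in WT against 8.64 and 33.8 CPM in APC-KO (0.54, SE 0.55, edgeR adjusted p = 1.00). This became 1.08 without APC-KO replicate 1 (edgeR adjusted p = 0.0434) and −0.70 without APC-KO replicate 2. Kcne3 in the PROGENITOR sum was 110 and 116 CPM in WT against 122 and 102 CPM in APC-KO (0.01, SE 0.22, edgeR adjusted p = 0.996).

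**Figure D4:**
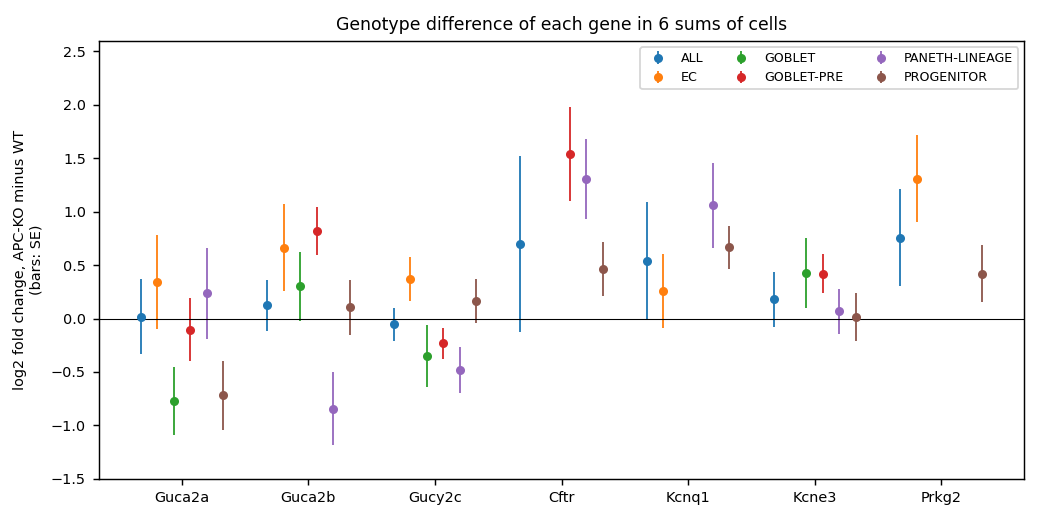
log2 fold change, APC-KO minus WT, of each gene in the 6 sums of cells in which it passed the low-count filter; points are edgeR estimates from 2 libraries per genotype and bars are 1 SE. No value reached an adjusted p of 0.05; the highest was 1.54 (Cftr in GOBLET-PRE) and the lowest −0.84 (Guca2b in PANETH-LINEAGE).

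The rest of the pathway was read from 5 lists with 43 genes. In edgeR none passed the test in either direction in any sum, of 39 tested in ALL, 24 in EC, 20 in GOBLET, 29 in GOBLET-PRE, 26 in PANETH-LINEAGE and 35 in PROGENITOR. Unadjusted p-values under 0.05 numbered 3, 2, 2, 3, 8 and 7 in the same order, beside the shares of all genes given above, and DESeq2's Wald test called 0 in each sum. Positive log2 fold changes numbered 26 of 39, 16 of 24, 11 of 20, 19 of 29, 17 of 26 and 24 of 35 in this order of the sums. Of all genes tested, 50.9%, 49.8%, 50.9%, 49.9%, 50.5% and 50.7% had one. The chloride and bicarbonate transport list had a positive median in every sum, while medians over all genes were −0.0021 to 0.013. It was 0.27 over 10 genes in ALL, 0.54 over 4 in EC, 0.42 over 3 in GOBLET and 0.32 over 6 in GOBLET-PRE. In PANETH-LINEAGE it was 0.25 over 4 genes. In PROGENITOR it was 0.46 over 9 genes. ENTERO-PRO cells made up unequal parts of this sum, as given for Prkg2, and the 8 enterocyte markers, all detected, summed in it to 1693 and 1936 CPM in WT and to 9018 and 2295 CPM in APC-KO. Their part in the result was not tested. The cGMP list had a median of 0.57 over 4 genes in PANETH-LINEAGE, with 0.00 over all genes. The remaining list medians in PANETH-LINEAGE and PROGENITOR lay between −0.15 and 0.25.

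Over types, 30 of the 43 pathway genes reached a mean of 20 CPM in some type, and 11 of them were highest in ENTERO-PRO, 4 in TUFT, 3 each in EC, EEC-PRE and NON-EC, 2 each in ISC and GOBLET, and 1 each in PANETH-PRE and SEC-PRO. For each list the 2 tested genes with the highest level over all kept cells are described. Slc12a2, the basolateral cotransporter that loads cells with chloride, was highest in ISC at 686 ± 220 CPM (SD, n = 4), the type that led for Cftr and Kcne3, and lowest in GOBLET at 43.5 ± 25.7 CPM. Slc4a7, a sodium bicarbonate cotransporter gene, was highest in TUFT at 333 ± 51.4 CPM (SD, n = 3). Atp1b1, a subunit of the sodium pump, was highest in ENTERO-PRO at 854 ± 179 CPM, and the pump regulator Fxyd3 in PANETH-PRE at 979 ± 168 CPM (SD, n = 4). Of the cGMP phosphodiesterase genes, Pde5a was highest in EEC-PRE at 79.7 ± 9.70 CPM (SD, n = 4) and Pde9a in TUFT at 51.7 ± 11.6 CPM (SD, n = 3). The regulatory subunits of cAMP-dependent kinase, Prkar1a and Prkar2a, were highest in EC at 362 ± 54.6 CPM (SD, n = 4) and SEC-PRO at 250 ± 16.9 CPM (SD, n = 3). The scaffold genes Slc9a3r1 and Ezr were highest in ENTERO-PRO at 189 ± 63.9 CPM and in NON-EC at 238 ± 43.0 CPM (SD, n = 4). Prkg1, the other cGMP-dependent kinase gene, and the soluble guanylyl cyclase genes Gucy1a1 and Gucy1b1 had a mean of 0 CPM in every type.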

How the data were processed

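The authors deposited unfiltered gene by barcode matrices of UMI counts and per-cell tables. Per the submitters' processing notes they used Cell Ranger 3.0.2, STAR and mm10. Their deposited table of cells holds counts of UMIs and genes, a mitochondrial percent, and other values (a library name and 1 of 12 type names). How cells were filtered or doublets treated was not given in the sources used here, and no doublet caller was run. UMIs were summed per library and type with Python 3.11.15, and CPM is the gene's UMIs per 1000000 of the sum. Positions came from GENCODE vM21, which matched 31011 of 31053 IDs, and promoters from RefSeq GRCm38.p6, which held 4 of the 7 genes. Genotypes were compared with edgeR 4.0.16 (R 4.3.3; TMM, filterByExpr, adjusted p under 0.05), with DESeq2 1.42.0 as an alternative. An SE is the absolute log2 fold change divided by the square root of F. The scripts were tested on simulated data. The genes, lists and sums were chosen with earlier results of these data known. Named genes are the 7 members, for each the 3 genes with the highest r, and of each list the genes past the threshold or otherwise the 2 most abundant tested. Alternatives changed the normalization, filter, depth, free RNA and the libraries used.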

Additional observations from a re-analysis of the deposited data

Results flagged for a closer look

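In 4 pairs of sums a gene stood higher in both APC-KO libraries than in both WT libraries in 1 sum and lower in the other, and the difference between the sums was not tested. As a ratio of mean CPM, APC-KO over WT with 2 libraries each, Guca2a was 1.69 in PANETH-LINEAGE, 0.642 in GOBLET and 0.548 in PROGENITOR. The median gene of PANETH-LINEAGE was 0.50 higher in APC-KO on the log2 scale of raw CPM, and the scaled log2 fold change of Guca2a there was 0.24, or −0.29 after thinning to 2000 UMIs. Guca2b was 1.63 in GOBLET-PRE and 0.791 in PANETH-LINEAGE. Gucy2c was 1.28 in EC and 0.783 in GOBLET-PRE. Of all genes with at least 3 UMIs in each library, 7.97% stood apart in opposite directions in PANETH-LINEAGE and GOBLET, 18.2% in PANETH-LINEAGE and PROGENITOR, 18.2% in GOBLET-PRE and PANETH-LINEAGE and 3.72% in EC and GOBLET-PRE. None of the member values reached an adjusted p of 0.05 in edgeR in either sum.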

How the results depend on the processing

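The highest type of each of the 7 genes was the same with at least 20 cells per type. For the 34 tested member values, 355 of 396 alternatives kept direction and side of the threshold, 30 reversed direction, 1 of them past the threshold (Guca2a in EC without APC-KO replicate 2), and 11 others passed it in the same direction, and without the fits that leave out a library 248 of 260 did so. Counts of called genes were 0 in ALL, 0 in EC, 5 in GOBLET, 1 in GOBLET-PRE, 57 in PANETH-LINEAGE and 102 in PROGENITOR. With DESeq2's Wald test they were 23 in ALL, 13 in EC, 38 in GOBLET-PRE and 25 in PROGENITOR. With no filter beyond 1 count they were 21, 174, 79, 280, 477 and 548 in that order of the 6 sums. After thinning to 2000 UMIs they were 37 in EC, 8 in GOBLET, 8 in GOBLET-PRE, 121 in PANETH-LINEAGE and 389 in PROGENITOR, and with free RNA subtracted 3, 0, 124 and 39 in the last 4 sums. PANETH cells alone gave 98 and ISC cells alone 350, both added after seeing the data. Leaving out 1 library gave 0 to 483 in ALL, 0 to 405 in EC, 0 to 21 in GOBLET, 7 to 64 in GOBLET-PRE, 0 to 461 in PANETH-LINEAGE and 18 to 523 in PROGENITOR. Without APC-KO replicate 1 there were 483, 405, 21, 47, 461 and 523. Without APC-KO replicate 2 there were 18, 102, 0 and 7 in the first 4 sums and 113 in PANETH-LINEAGE. Without WT replicate 1 there were 20 in GOBLET, 64 in GOBLET-PRE and 0 in PANETH-LINEAGE, and without WT replicate 2 there were 22 in GOBLET-PRE, 1 in PANETH-LINEAGE and 18 in PROGENITOR. The cause of these changes was not tested.

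Labels give both genotypes the numbers 1 and 2 but do not say that they pair libraries. Deviations of same-numbered libraries correlated at −0.37 in ALL and at −0.06 to 0.01 in the other sums. With the replicate block 4 genes were called in ALL, 73 in GOBLET, 110 in GOBLET-PRE, 124 in PANETH-LINEAGE and 146 in PROGENITOR, and 0 of the 7 members. The crossed replicate block, added after seeing the data, called 1 in ALL. Guca2a in ALL, 0.02, was −0.0287 with the replicate block and −0.0289 with the crossed one.

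Member values that reversed otherwise were, thinned, Guca2a in ALL (−0.095) and PANETH-LINEAGE (−0.29) and Gucy2c in ALL (0.00038). In PANETH-PRE cells alone Guca2a was −0.35, and in ISC cells alone Guca2b was −0.24 and Kcne3 −0.19. Over the fits that leave out 1 library, ranges that crossed 0 were, in ALL, −0.44 to 0.40 for Guca2a, −0.13 to 0.35 for Guca2b, −0.14 to 0.059 for Gucy2c, −1.52 to 1.43 for Cftr, −0.70 to 1.08 for Kcnq1 and −0.20 to 0.46 for Kcne3. In EC they were −1.49 to 0.87 for Guca2a, −1.28 to 1.06 for Guca2b and −0.97 to 0.54 for Kcnq1. In GOBLET they were −0.51 to 0.54 for Guca2b and −0.033 to 0.55 for Kcne3, and in GOBLET-PRE −0.39 to 0.24 for Guca2a. In PANETH-LINEAGE they were −0.25 to 0.91 for Guca2a, −1.42 to 1.41 for Cftr and −0.0083 to 0.24 for Kcne3. In PROGENITOR they were −0.28 to 0.29 for Guca2b, −0.34 to 0.62 for Cftr and −0.051 to 0.19 for Kcne3. Where an arm has 1 library, it is assumed to vary like the other group.

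The precision is limited by 2 libraries per genotype and by 5 to 45 cells in each type but GOBLET-PRE of APC-KO replicate 1. Intervals and the 3-UMI floor cover counting error only.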
